A study of Homo sapiens with 8 samples.

Results

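PC3 cells, a human prostate cancer line, held 970 HIF-1β binding sites that were called in both of their ChIP-seq replicates. A site was taken as a merged region in which peaks of replicate 1 and replicate 2 overlapped by at least 1 bp. In all 4 cancer lines of the study together, sites built in this way formed 3837 merged regions, and the PC3 sites were compared with 2062 sites of T47D breast cancer cells, 1041 of A549 lung cancer cells and 1756 of HCT-116 colorectal carcinoma cells. All lines were grown in the same serum-supplemented medium and kept at 0.5% oxygen for 16 h, and DNA bound by HIF-1β was recovered with a single rabbit polyclonal antibody in 2 replicates of each line. PC3 cells came from ATCC and the other lines from ECACC, so the source of the cells and the line cannot be told apart for PC3. Libraries of normoxic cells or of input DNA were not analysed here, and nothing in the labels says whether replicates were separate cultures. The lists give the position and score of every peak on GRCh37 (hg19) but no reads, so the depth behind each library is unknown.

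The hypoxia-inducible factors (HIF) are the transcription factors by which cells respond to low oxygen. An oxygen-sensitive HIF-α subunit is hydroxylated by EGLN enzymes and destroyed through VHL while oxygen is plentiful, and in hypoxia it accumulates and pairs with the stable subunit HIF-1β, which is encoded by ARNT. The pair binds hypoxia response elements around the core RCGTG, in which R is A or G, and induces genes of glucose uptake, glycolysis, mitochondrial restraint, matrix modification and blood supply. HIF-1β also partners the aryl hydrocarbon receptor, so that its binding sites need not all be HIF sites. PC3 cells derive from a bone metastasis and are widely used as a model of androgen-independent prostate cancer.

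The sequences at the 8 highest-ranked PC3 sites are shown because they hold the element that HIF binds. Sites were ranked by the mean of their score ranks in the 2 replicates, and named after the protein-coding gene with the nearest transcription start, which does not mean that the site acts on that gene. Each line gives the RCGTG copy nearest to the centre of the site with the bases around it, from the GRCh37 reference, and capitals mark RCGTG on either strand. Windows that met an untranslated region were kept to 29 bases and the others run over 101 bases.
ANKRD37 (chr4:186317600-186317628, plus strand): cactaccgggagACGTGtcaaactcagcg
GPI (chr19:34850329-34850357, plus strand): ctgaccacccggACGTGctggcccacacg
ENO1 (chr1:8939061-8939089, plus strand): tggcccggggcgGCGTGgcgggcatgaga
SNAPC1, beyond the 3′ end of HIF1A (chr14:62217966-62218066, plus strand): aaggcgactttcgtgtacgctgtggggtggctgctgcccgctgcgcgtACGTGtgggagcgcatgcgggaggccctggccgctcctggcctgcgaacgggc
VOPP1, within the pseudogene FKBP9P1 (chr7:55766774-55766874, plus strand): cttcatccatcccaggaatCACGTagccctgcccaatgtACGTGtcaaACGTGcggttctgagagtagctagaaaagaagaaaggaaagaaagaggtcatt
RRP12 and PGAM1 (chr10:99185766-99185794, plus strand): ctccGCGTGcttACGTGcgctccgtgact
NARF (chr17:80416011-80416039, plus strand): tccgggtccatCACGTGgttactgacagg
PDK1 (chr2:173420798-173420826, plus strand): cgcCACGTccctCACGTaccactcggcag
The copy shown lay between 13 bp and 92 bp from the centre of its site. In ANKRD37, GPI and the site beyond HIF1A it reads ACGTG on the plus strand, ENO1 shows the variant with G in place of the first A, and PDK1 carries a pair of copies on the minus strand. NARF shows the palindrome CACGTG, which counts as RCGTG on both strands. The VOPP1 window holds 3 copies.

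The VOPP1 site is also the highest-ranked PC3 site that met no peak of any other library. Others of this kind are shown in the same way, because they carry the part of the programme that was not called in the other lines.
BLCAP (chr20:36170713-36170813, plus strand): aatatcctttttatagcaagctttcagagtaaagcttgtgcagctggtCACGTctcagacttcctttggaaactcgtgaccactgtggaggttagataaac
TUBGCP2 (chr10:135107158-135107258, plus strand): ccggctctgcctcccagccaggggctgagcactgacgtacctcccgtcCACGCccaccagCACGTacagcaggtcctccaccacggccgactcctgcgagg
BLCAP holds a single copy in its window and TUBGCP2 holds 2. Both windows lie outside promoters, 13537 and 14377 bp from the nearest transcription start.

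Many PC3 sites far from promoters also held TGANTCA, in which N is any base, the element bound by AP-1 factors of the FOS and JUN families. The central 200 bp of 3 high-ranked distal sites with both elements are shown, with both in capitals. The NDRG1 site of rank 9, which also held both, is not among them. These examples were chosen after the motif shares had been seen.
ARRDC3 (chr5:90576424-90576623, plus strand): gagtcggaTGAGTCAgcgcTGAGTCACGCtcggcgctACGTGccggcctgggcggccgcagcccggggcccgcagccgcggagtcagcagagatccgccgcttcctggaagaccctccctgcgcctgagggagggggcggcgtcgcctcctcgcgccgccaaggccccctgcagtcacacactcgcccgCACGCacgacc
SEMA4B (chr15:90709007-90709206, plus strand): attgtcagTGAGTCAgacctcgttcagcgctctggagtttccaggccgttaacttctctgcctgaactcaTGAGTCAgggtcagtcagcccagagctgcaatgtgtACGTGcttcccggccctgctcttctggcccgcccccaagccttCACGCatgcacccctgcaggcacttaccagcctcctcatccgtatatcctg
KCMF1 (chr2:85173607-85173806, plus strand): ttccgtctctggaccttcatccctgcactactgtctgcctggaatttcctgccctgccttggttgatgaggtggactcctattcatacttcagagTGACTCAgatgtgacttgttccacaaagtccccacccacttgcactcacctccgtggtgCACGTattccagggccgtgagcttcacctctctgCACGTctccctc
At ARRDC3, a second AP-1 element shares its last bases with an RCGTG copy on the minus strand, so the capitals run together there. SEMA4B holds 2 AP-1 elements and KCMF1 holds 1.

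The replicates of PC3 differed in the number of peaks but ranked the shared sites alike. Replicate 1 had 1042 peaks and replicate 2 had 2891, of which 1 in each lay off the main chromosomes, and 93.2% of the replicate 1 peaks but 33.6% of the replicate 2 peaks overlapped the other list. Among the 970 sites, the median score was 97.0 in replicate 1 and 199 in replicate 2. Spearman's rho of the scores over the 970 sites was 0.779, a description over sites that share both libraries. Of the 100 highest-scoring sites of replicate 1, 85 were among the 100 highest of replicate 2. Median site width was 1400 bp, from 692 to 9457 bp. With either replicate alone, every peak of the remaining one counts, giving 1041 sites without replicate 2 and 2890 without replicate 1, so the smaller list sets the number of sites.

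**Figure D1:**
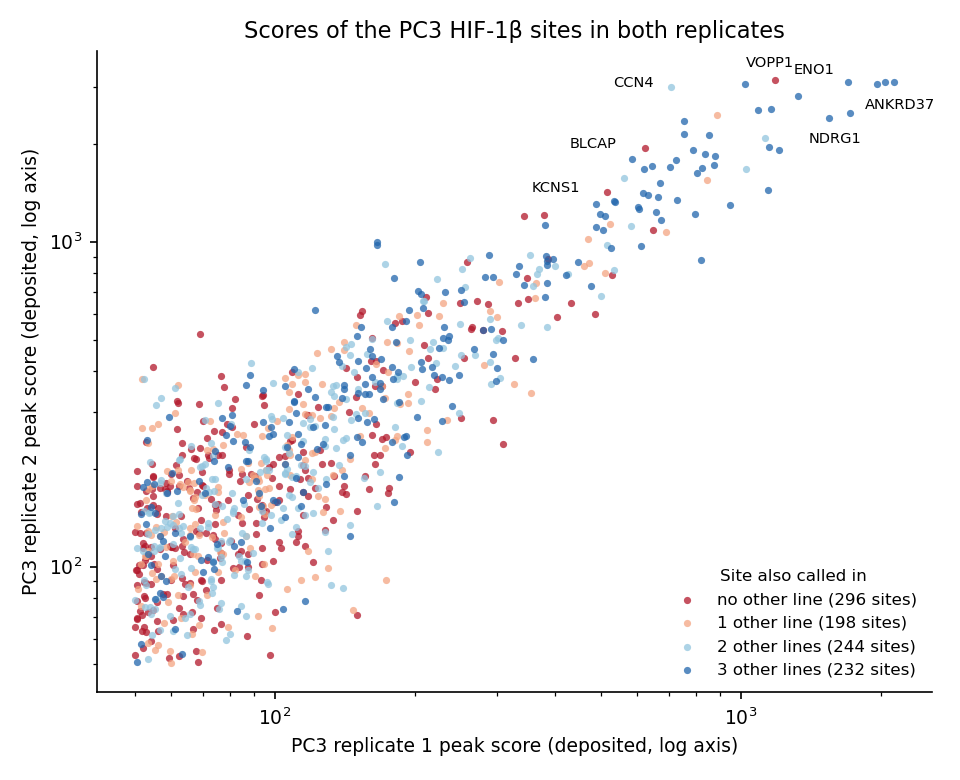
Deposited peak scores of the 970 PC3 sites in replicate 1 (horizontal, log axis) and replicate 2 (vertical, log axis), 1 point per site, coloured by how many of the other 3 lines had a site there. Most of the points at the upper right are sites of all 4 lines, with VOPP1, BLCAP and KCNS1 as high-scoring sites without one elsewhere.

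Peaks of replicate 2 that replicate 1 lacked were lower and less often on the motif. The 1920 such peaks had a median score of 70.9, against 199 for the 970 shared ones. RCGTG stood in the central 200 bp of 58.0% of them (95% exact binomial interval 55.8 to 60.2%) and of 71.3% of the shared peaks (68.4 to 74.2%). All intervals given are for counting error alone, because peaks within 1 library share its reads and chromatin. A peak of another line overlapped 51.0% of the peaks found in replicate 2 alone and 78.1% of the shared ones. Replicate 1 had 71 peaks of its own, with a median score of 55.8.

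The highest ranks went largely to genes of glycolysis and of other known hypoxia responses. ANKRD37, which encodes an ankyrin-repeat protein, ranked first scoring 2132 (replicate 1) and 3100 (replicate 2), the order used throughout. GPI, the glucose phosphate isomerase of glycolysis, came next with 2037 and 3100, and ENO1, the enolase, had 1695 and 3100. In replicate 2 these scores tie at 3100. That value was also the highest score of the A549 and HCT-116 libraries and of T47D replicate 1. Whether it is a ceiling is not stated, so the order of scores near it is uncertain. The site from 99184835 to 99186798 on chromosome 10 covered the starts of both RRP12, a ribosome assembly factor, and PGAM1, the phosphoglycerate mutase of glycolysis, with 1329 and 2817. All these sites cover a transcription start and were also called in the 3 other lines.

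The fourth and ninth sites lay away from any coding start. Rank 4 ran from 62215885 to 62218946 on chromosome 14, 908 bp beyond the 3′ end of HIF1A, the gene of the oxygen-sensitive subunit HIF-1α, and 10192 bp from SNAPC1, which encodes a subunit of a small nuclear RNA transcription complex. It scored 1960 and 3059. The start of HIF1A itself was 51545 bp away, so the gene counted as without a site within 25 kb. Rank 9 lay 72103 bp from NDRG1, a growth-restraining gene long known to respond to hypoxia, with scores of 1547 and 2406. Each of these intergenic sites was called in all 4 lines.

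Other sites of the first 30 fell on genes of several roles. PDK1, the kinase that holds pyruvate back from mitochondria, scored 1163 and 2564. KDM3A, a histone demethylase that needs oxygen, scored 1023 and 3054, and P4HA1, a collagen prolyl hydroxylase subunit, scored 1089 and 2535. SLC16A3, the exporter of lactate, had 1150 and 1954, and AK4, a mitochondrial adenylate kinase, had 881 and 1830. Less usual neighbours among the first 30 were SEC61G, part of the channel for secreted proteins (1210 and 1922), SULF1, a heparan sulfatase (1126 and 2093), and CALB1, a calcium-binding protein (846 and 1548). SULF1 was the exception of the first 30 sites with no RCGTG in the central 200 bp, although it held 4 copies over its whole width. Of these 30 sites, the VOPP1 site was the single one without a site in another line.

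Genes of the HIF pathway were next counted by list. The 14 lists hold 107 genes, and a gene counted where a site lay within 25 kb of one of its transcription starts. PC3 sites did so for 56 of the 107 genes (52.3%), against 5.51% of all 19268 protein-coding genes. Within 2 kb they did so for 48 of the 107, against 2.38% of all genes. The same 107 genes had sites in 63 cases in T47D, 63 in A549 and 61 in HCT-116 cells, where 13.2%, 4.59% and 11.8% of all genes had one. In all, 45 of the genes had a site in PC3 and in every other line. The nearest sites of the 56 genes had a median rank of 146 of 970, and 25 of them were among the 97 highest-ranked. The lists were drawn up with earlier results of these data known, so the counts are a description.

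**Figure D2:**
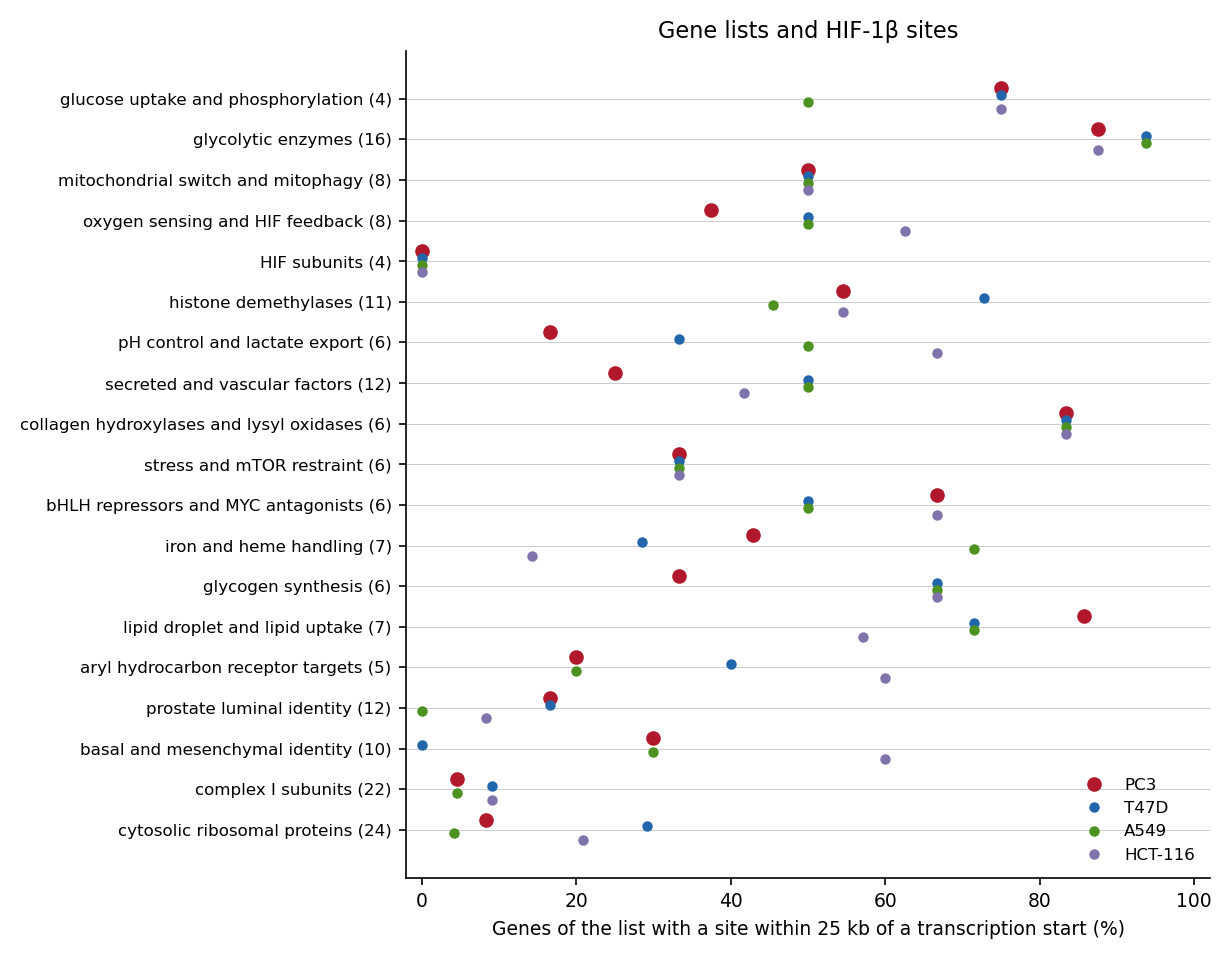
Share of the genes of each list (number of genes in brackets) with a site within 25 kb of a transcription start, 1 point per line. PC3 reached 14 of 16 glycolytic enzymes and 6 of 7 lipid genes but 1 of 6 genes of pH control, and none of the 4 HIF subunit genes in any line.

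Most genes of glucose metabolism had a PC3 site. Of 4 genes of glucose uptake and phosphorylation, SLC2A1, HK1 and HK2 had PC3 sites. HK2, the inducible hexokinase, scored 611 and 972, and HK1 scored 399 and 843. SLC2A1, the general glucose transporter, had 3 sites between 43406004 and 43428997 on chromosome 1, ranked 179, 233 and 307. SLC2A3, another glucose transporter, had its nearest site 33795 bp away, beyond the window, although that site ranked 30th with scores of 705 and 1695.

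Of 16 glycolytic enzymes, 14 had a PC3 site and each of these sites lay within 2 kb of a start. LDHA, which reduces pyruvate to lactate, scored 756 and 2354, and PGK1, the phosphoglycerate kinase, scored 791 and 1920. ALDOA, the main aldolase, had 854 and 2138, and GAPDH had 877 and 1726. The regulators PFKFB4 (827 and 1684) and PFKFB3 (560 and 1571), which make the activator of phosphofructokinase, also ranked among the first 50. The sites at the starts of the remaining enzymes scored lower, among them TPI1 (111 and 297), PKM (114 and 239, beside a second promoter site at 282 and 776), PFKL (160 and 468), ALDOC (145 and 124) and PFKP (52.5 and 379). PFKM, the muscle phosphofructokinase, had no site in any line, and ENO2 had one in each of the other lines but a peak of replicate 2 alone in PC3, scored 211.

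Mitochondrial and feedback genes were covered in part. PDK3 (58.5 and 90.0), BNIP3 (105 and 359) and BNIP3L (633 and 1391) had sites beside PDK1, the BNIP pair being receptors for the removal of mitochondria. PDK2, PDK4, COX4I2 and FUNDC1 had none in any line. Of the oxygen sensors, EGLN1 had a promoter site (153 and 545) and EGLN3 one 11411 bp from its start (672 and 1520), while EGLN2 and VHL had none in any line. None of HIF1A, EPAS1, ARNT and ARNT2 had a site within 25 kb of a start in any of the 4 lines.

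Oxygen-dependent enzymes of chromatin and matrix made up further groups. Of 11 histone demethylases, 6 had PC3 sites. After KDM3A the highest was KDM4B (584 and 1794), followed in rank by KDM4C (229 and 505), KDM5B (222 and 423), KDM6B (240 and 312) and KDM2A (112 and 398). Among collagen hydroxylases and lysyl oxidases 5 of 6 had one, with PLOD2, a lysyl hydroxylase, at 726 and 1785 and P4HA2 at 205 and 865. LOXL2 and PLOD1 had sites 11321 and 4123 bp from a start, and LOX, the lysyl oxidase itself, had one in T47D cells alone.

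Secreted factors and pH control were sparser in PC3. Of 12 secreted and vascular factors, STC2 (836 and 1860), ADM (505 and 1088) and ANGPTL4 had a site. ANGPTL4 had 2, one over its start (59.6 and 136) and one 418 bp from it (163 and 285). VEGFA, the main inducer of vessel growth, had its nearest PC3 site 101283 bp away, beyond the window. That site scored 534 and 1334 and was called in every other line. Within the window VEGFA had a peak in replicate 2 alone, scored 63.2. STC1 was likewise found in replicate 2 alone, at 104, and EDN1 had peaks of 54.0 and 84.3 that did not overlap. Of 6 genes of pH control, SLC16A3 alone had a site. CA9 and CA12, the carbonic anhydrases of the cell surface, had peaks of replicate 2 only, at 60.9 and 88.7.

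The gaps were counted over all lists. Of the 51 listed genes without a PC3 site, 13 had a peak of replicate 2 alone within 25 kb, 1 of replicate 1 alone and 1 of both without overlap, and 36 had none. Counting every replicate 2 peak would raise the number of covered genes from 56 to 70, with 7 secreted factors in place of 3, 3 genes of pH control in place of 1, 5 of oxygen sensing in place of 3 and 4 of glycogen synthesis in place of 2. Another line had a site at 20 of the 51 genes, and 31 had none in any line.

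Lipid and iron genes were covered in part. Of 7 lipid genes, 6 had PC3 sites, against 5 in T47D, 5 in A549 and 4 in HCT-116 cells. HILPDA, a lipid droplet protein, scored 422 and 792, and INSIG2, which restrains sterol synthesis, 299 and 410. FABP3, a fatty acid carrier, was the only gene of the 14 lists with a site in PC3 and in no other line, with scores of 55.9 and 67.8 close to the lowest of each list. TFRC, the transferrin receptor (118 and 352), TF, transferrin (86.8 and 186), and CP, ceruloplasmin (123 and 453), were the 3 of 7 iron genes with a site, against 5 in A549 and 1 in HCT-116 cells.

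The remaining lists were small. BHLHE40 (617 and 1412), BHLHE41 (149 and 555), MXI1 (231 and 547) and HES1 (63.1 and 221) were 4 of 6 repressors and MYC antagonists with a site. GBE1, the glycogen branching enzyme (499 and 1218), and PGM1 (162 and 445) were 2 of 6 glycogen genes, where each other line had 4. DDIT4, an inhibitor of mTOR signalling, scored 81.5 and 243, and with NDRG1 it made up 2 of 6 stress genes. Of 5 targets of the aryl hydrocarbon receptor, CYP1B1 alone had a PC3 site, with scores of 63.2 and 53.7.

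Among lists chosen as unlike HIF targets, complex I (4.55%) and ribosomal proteins (8.33%) lay near the 5.51% of all genes. Of 22 complex I subunits, NDUFA1 had a PC3 site (58.7 and 82.1), and of 24 cytosolic ribosomal proteins, RPL18 and RPL27 did, each at the promoter of a neighbouring gene over 14 kb away. The lists contain no expression values, so the labelled cell type could be set against marker genes only by binding. Of 12 markers of prostate luminal cells, KLK4 and SLC45A3 had a site, with none at KLK3, the gene of prostate-specific antigen. Of 10 basal and mesenchymal markers, CAV1, EGFR and FOSL1 had one, at 12026, 21941 and 10339 bp. Of the luminal markers, T47D cells had a site at 2, A549 at 0 and HCT-116 at 1. Of the basal and mesenchymal markers, these lines had a site at 0, 3 and 6. In PC3, both marker lists lay above the share of all genes. The HIF lists of pH control (1 of 6) and HIF subunits (0 of 4) were no higher than either. Within 10 kb the ribosomal, luminal and basal lists had 0 genes with a site, and without replicate 1 they and complex I had 4, 2, 5 and 3. The part of cell identity in these counts was not tested.

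PC3 sites lay at promoters less often than those of T47D and HCT-116 cells and more often than those of A549 cells. Within 2 kb of a coding start lay 409 of the 970 sites (42.2%, interval 39.0 to 45.3%), against 60.7% in T47D, 31.9% in A549 and 63.5% in HCT-116 cells. A start was covered by 327 sites (33.7%). Of the rest, 194 were intronic, 17 exonic (1.75%) and 350 intergenic (36.1%). The 561 distal sites lay at a median of 30083 bp from the nearest start, and 120 sites were over 100 kb away. The 970 sites named 892 different nearest genes, of which 71 had more than 1 site.

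Library by library, the promoter shares of PC3 lay between those of A549, at 30.7% and 31.3%, and those of T47D and HCT-116 cells, from 58.9% to 64.9%, without overlap with any line. A test of PC3 against all other libraries together cannot show a difference of this kind, and single lines of 2 libraries were not tested against each other. Promoter peaks made up 41.4% and 37.6% of the 2 PC3 lists and between 30.7% and 64.9% of the 6 others, with means of 39.5% ± 2.66 (SD, n = 2) and 51.6% ± 16.1 (SD, n = 6). The difference of -12.1 percentage points was within the spread of the other libraries (exact permutation test over 28 ways to choose 2 of 8 libraries, two-sided, p = 0.43, adjusted over 5 tests 0.71). RCGTG in the central 200 bp marked 73.1% and 62.5% of PC3 peaks, against 60.1% to 75.4% (exact permutation test, p = 0.86, adjusted 0.89). TGANTCA marked 18.4% and 22.9%, against 4.25% to 23.1% (exact permutation test, p = 0.36, adjusted 0.71). GC content of the central 200 bp was 57.0% and 55.4% against 54.8% to 63.4%, and median peak width 1076 and 1243 bp against 948 to 1314 bp (exact permutation tests, p = 0.39 and 0.89, adjusted 0.71 and 0.89). The smallest p that this test over libraries allows is 0.036. It treats the 6 other libraries as separate, although they are replicate pairs of 3 lines, so it does not measure the spread between lines. In every measure the PC3 libraries fell inside the pooled range of the other 6 libraries.

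**Figure D3:**
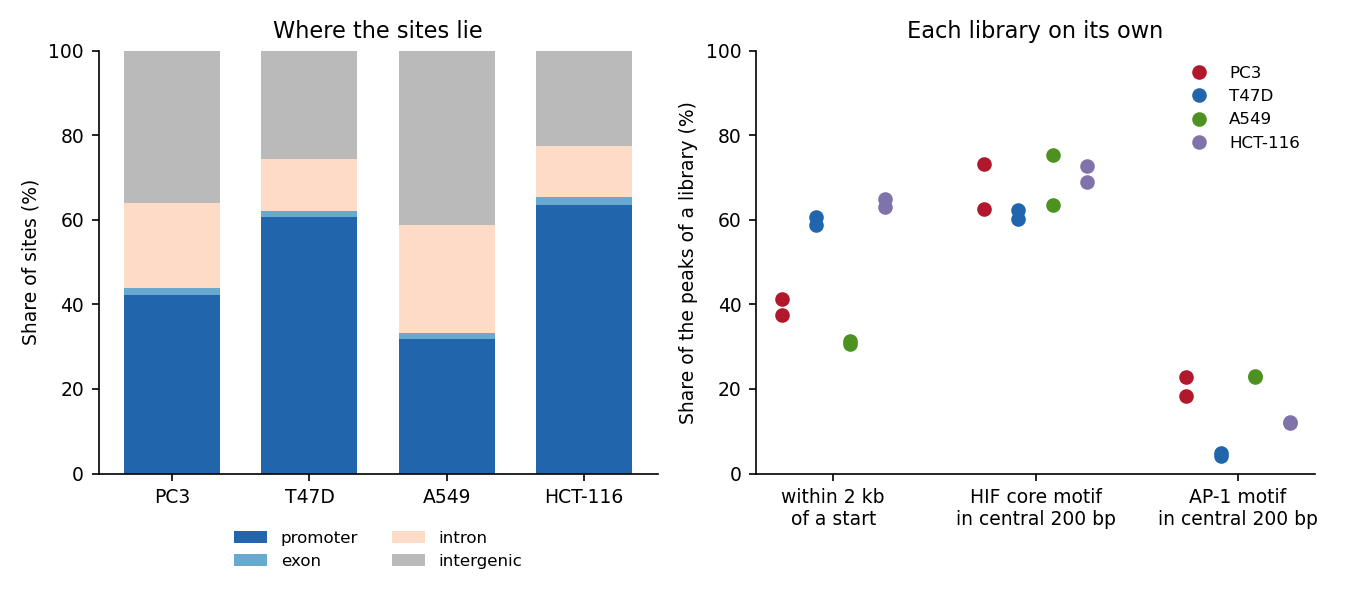
Left, share of the sites of each line (vertical, %) at promoters, in exons, in introns and between genes. Right, 3 measures of every single library as a share of its peaks (%), 1 point per library, where the PC3 points lie between those of A549 and those of T47D or HCT-116 cells for promoter peaks and beside A549 for the AP-1 motif.

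The HIF core stood at the centre of PC3 sites both at promoters and away from them. RCGTG occurred in the central 200 bp of 740 of the 970 sites (76.3%, interval 73.5 to 78.9%), against 22.6% of 1940 windows of the same length 5 kb to either side. At promoters the share was 76.0% and at distal sites 76.5%. The same window at the transcription starts of all 19268 coding genes held RCGTG in 38.7%. At distal sites of the other lines it was 57.3% in T47D, 74.0% in A549 and 74.4% in HCT-116 cells. By position, distal PC3 sites held 7.66 copies per kb in the 50 bp before the centre, and promoter sites held 10.0 in the 50 bp after it. The palindrome CACGTG, each copy of which also counts as RCGTG, was in 8.66% of PC3 sites and 2.37% of windows 5 kb away.

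**Figure D4:**
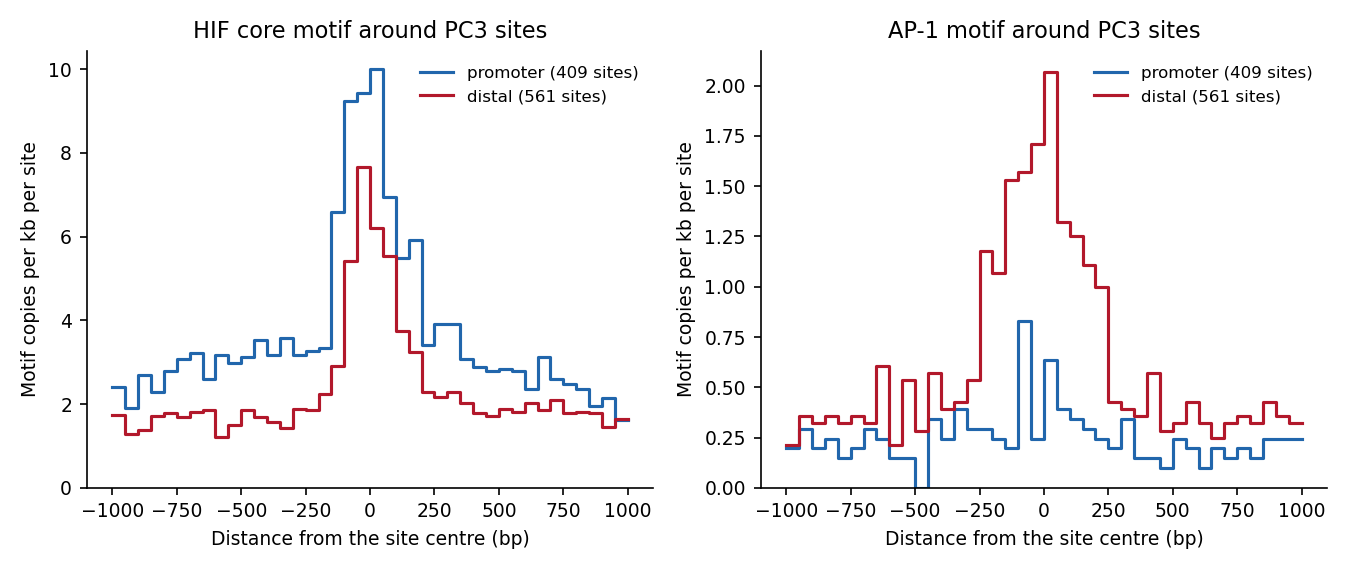
Copies of the HIF core motif RCGTG (left) and the AP-1 motif TGANTCA (right) per kb per site, in bins of 50 bp, against the distance from the centre of PC3 sites (bp), for 409 promoter and 561 distal sites. RCGTG peaks at the centre in both classes, whereas TGANTCA reaches 2.07 copies per kb at the centre of distal sites and stays below 1 copy per kb at promoters.

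The bases around the core differed from those of copies 5 kb away, which had preferences of their own. Those copies began with G in 65.5% and were preceded by G in 46.6%. They are thus not a set of chance copies, and the repeat content of these windows was not analysed. The RCGTG copy nearest to the centre began with A in 66.9% of the 740 sites that had one, against 34.5% of the copies 5 kb away. It was followed by C in 44.1%, against 18.5%, and preceded by T in 40.4%, against 19.4%. The 6 bases TACGTG made up 30.7% of such copies in PC3 sites, 6.62% of those 5 kb away, and 16.0% of those in T47D and 15.9% in HCT-116 sites, while in A549 it made up 238 of 794. Within PC3 it made up 37.8% at distal sites and 20.9% at promoters, and 28.4% in the 97 highest-ranked and 29.7% in the 97 lowest-ranked sites. The TACGTG share differed more between promoter and distal sites than between the highest and lowest ranks. The share of copies followed by C went the other way. It was 49.4% in the highest and 36.5% in the lowest ranks, against 44.7% at promoters and 43.6% at distal sites.

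AP-1 elements marked distal PC3 sites. TGANTCA was in the central 200 bp of 150 of 561 distal sites (26.7%, interval 23.1 to 30.6%) and of 37 of 409 promoter sites (9.05%), against 6.42% and 6.60% of the windows 5 kb away. At distal sites of other lines it was in 7.89% in T47D, 29.1% in A549 and 27.8% in HCT-116 cells. RCGTG was as common with it as without it at distal PC3 sites, in 76.0% of the 150 and 76.6% of the other 411. Distal sites with the AP-1 element stood somewhat lower, with a median rank of 523 against 454 without it, whereas at promoters the ranks were 388 and 496. Neither motif was found in the central 200 bp of 184 sites, which says only that these letters are not in that window.

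Promoter sites instead held elements of general promoters. GGGCGG, a binding element of the SP family, was in 46.7% of promoter and 11.1% of distal PC3 sites, and in 39.8% of windows at all coding starts. CCGGAA, an element of the ETS family, was in 18.1% and 4.28%, and in 13.6% at all starts. GGAATGT, the element of TEAD factors, was in 8.73% of distal PC3 sites, 4.32% in T47D, 6.77% in A549 and 4.99% in HCT-116 cells, and in 1.96% of the windows 5 kb from distal PC3 sites.

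More PC3 sites overlapped a site of HCT-116 cells than of T47D or A549 cells, whose lists differ in size. A HCT-116 site overlapped 548 of the 970 PC3 sites (56.5%), which met 31.2% of the HCT-116 sites. For T47D the count was 429, or 44.2% of the PC3 and 20.8% of the T47D sites, and for A549 the shares were 41.8% and 38.9%. Promoter sites were shared more often than distal ones with each line. Of the 409 promoter sites, 73.1% met a T47D site, 48.2% an A549 site and 77.8% a HCT-116 site, and of the 561 distal sites 23.2%, 37.1% and 41.0% did.

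Sharing fell with rank. Of the 97 highest-ranked PC3 sites, 62 (63.9%) had a site in all 3 other lines and 11 (11.3%) in none. Of the 97 lowest-ranked, 11 (11.3%) had one in all 3 and 49 (50.5%) in none. Promoter share and RCGTG share moved less, from 49.5% to 44.3% and from 83.5% to 76.3% between these groups. Median width was 1764 bp in the highest group and 1209 bp in the lowest.

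**Figure D5:**
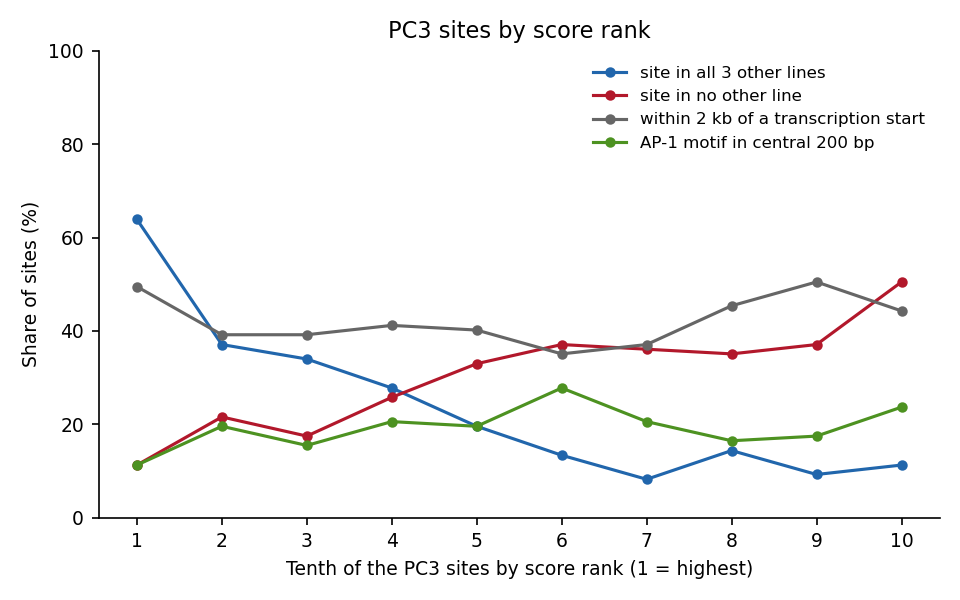
Shares of PC3 sites (vertical, %) in 10 groups of 97 sites ordered by score rank (horizontal). The share with a site in all 3 other lines goes from 63.9% to 11.3% and that with none from 11.3% to 50.5%, while promoter and AP-1 shares show no steady course.

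The combination of lines went with both place and motif. The 232 sites of all 4 lines lay at promoters in 70.3% and held TGANTCA in 9.05%, and the 133 shared with T47D and HCT-116 cells alone did so in 80.5% and 3.76%. In contrast, the 88 sites shared with A549 and HCT-116 cells alone lay at promoters in 20.5% and held TGANTCA in 44.3%, and RCGTG in 83.0%. The 62 shared with A549 alone lay at promoters in 8.06% and held TGANTCA in 32.3%. Both of these groups leave out T47D by definition.

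No site of another line overlapped 296 PC3 sites (30.5%), and 212 met no peak of any other library. These 212 were mostly distal, with 76 in introns, 5 in exons, 104 between genes and 27 (12.7%) at promoters. Their median distance from a coding start was 28628 bp and their median rank 595, and 8 were among the 97 highest-ranked. RCGTG was in the central 200 bp of 150 (70.8%) and TGANTCA of 53. The copy of RCGTG nearest to the centre read TACGTG in 66 of the 150, against 162 of 429 over all distal PC3 sites that had a copy.

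The highest-ranked of them was the site of rank 5, from 55765926 to 55767726 on chromosome 7. It scored 1183 in replicate 1 and 3148 in replicate 2, the highest value of that list, where the order near 3100 is uncertain. It lay 125731 bp from VOPP1, within FKBP9P1, a transcribed pseudogene of the FK506-binding protein gene FKBP9. The 250 bp at its centre have a copy of 98.800% identity at 33027922 to 33028171 on chromosome 7, within FKBP9, and no library had a peak at that copy. The 7 other highest-ranked sites printed above have no such second copy. How reads were divided between the copies cannot be seen in the peak lists, and the part of this in the result was not tested.

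BLCAP and KCNS1 on chromosome 20 came next, with 622 and 1940 for a site 13537 bp from the first and 516 and 1423 for one 11812 bp from the second, KCNS1 being a modulatory subunit of potassium channels. TUBGCP2, part of the complex that seeds microtubules, had a site over an exon (530 and 791), and COG7, part of a Golgi tethering complex, one 1578 bp from its start (386 and 886). DCTD, the deoxycytidylate deaminase, was 101696 bp from its site (348 and 771), which is nearer to the body of TENM3. Further down were introns of CUBN, the receptor cubilin (271 and 656), TENM4, a teneurin (265 and 545), TLL1, a tolloid-like protease (333 and 647), and SAMD4A (213 and 605). A site ranked 130 lay within PCAT5, a long non-coding RNA named for its association with prostate cancer, 150949 bp from FZD8, a receptor for WNT ligands, and scored 263 and 540. CSTB, the cathepsin inhibitor cystatin B, had a site 1900 bp from its start (209 and 481). None of these belongs to the lists of HIF genes, and no group of related functions was tested.

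Several genes gathered more than 1 PC3 site. NDRG1 had the most, with 4 sites within 50 kb of a start, ranked 17, 513, 788 and 858, where T47D had 1, A549 had 2 and HCT-116 had none. The megabase around it, from 134000001 to 135000000 on chromosome 8, held 8 PC3 sites, 3 of T47D, 6 of A549 and 2 of HCT-116 cells. It was the densest of the genome for PC3 and included the site of CCN4, a matrix protein of the WNT pathway, at 708 and 2987. OR1I1, an olfactory receptor gene, had 3 within 50 kb, and a pair of these, ranked 14 and 103, lay side by side from 15180635 to 15184820 on chromosome 19. T47D shared the first (889 and 2451), and the second (258 and 865) met no peak of another library. At ATG16L1, an autophagy gene, 3 PC3 sites lay within 50 kb and none of any other line, a gene named after its values were seen.

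By chromosome, PC3 sites were spread much as those of the other lines, with some exceptions. Over 23 chromosomes, the share of peaks in both PC3 libraries was above every library of the other lines on chromosomes 4, 7 and 20. It was below all of them on chromosomes 9 and 16. No test was run over chromosomes, and some margins were small, as on chromosome 4 (3.94% and 3.60% against at most 3.46%). Chromosome 9 had 2.11% and 2.39% of the PC3 peaks against 3.63% to 5.51%, and 21 of the 970 sites. On chromosome 16 the shares were 2.40% and 2.84% against 3.46% to 4.86%. Copy number and open chromatin of these cells were not analysed here, and their part in these shares was not tested.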

How the data were processed

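HIF-1β ChIP-seq peaks were taken from 2 libraries for each of 4 cell lines. Per the submitters' processing notes, reads were handled with Trim Galore 0.3.3, BWA 0.7.5a-r405, SAMtools 0.1.19, Picard 1.106, bedtools 2.17.0 and MACS on GRCh37 (hg19), and the methods of the study also name T-PIC. The authors deposited 1 peak list per library, unpooled, with a score for each peak that no header explains, so scores were compared within a library only. The lists hold no reads, and read depth is unknown.

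Peaks on the main chromosomes were merged within a line at an overlap of 1 bp or more, and regions with peaks of both replicates were kept as sites. A score of a site is the highest peak score in it. Transcription starts came from GENCODE release 44 lifted to GRCh37, from protein-coding transcripts, without readthrough transcripts and genes known only by clone names or identifiers. Motifs were searched on both strands in the 200 bp around the middle of the overlap of the highest-scoring peak of each replicate in a site, or around the middle of a single peak in counts per library. Copies were searched with BLAST at 95% identity over 200 bp. Libraries were compared by exact permutation tests with Benjamini-Hochberg adjustment over 5 measures, and p-values measure only the spread between these libraries. Merging and motif search were tested on simulated data. The work used Python 3.11.15, NumPy 2.4.6, SciPy 1.17.1, pysam 0.24.0, Matplotlib 3.10.9, samtools 1.23.1, BLAST 2.17.0, bedtools 2.31.1 and the GRCh37 primary assembly.

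The genes named were those nearest to the 30 highest-ranked sites and to the 20 highest-ranked sites without a peak in another line, the members of 19 gene lists, and the 10 genes with the most sites within 50 kb, of which ties after the first were named in part. The members, lists and tests were chosen with earlier results of these data known. Alternatives were other overlaps, the higher-scoring 50% of each list, each PC3 replicate left out, a peak of either replicate of another line, the replicate number as a block, other promoter and gene windows, and a wider or distal motif window. The 3 sequences with both motifs were the highest-ranked such distal sites outside chromosome 8, from which no sequence is printed, and were chosen after the motif shares were seen. Some named items that these rules pick are not reported here.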

Additional observations from a re-analysis of the deposited data

How the results depend on the processing

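Keeping the higher-scoring 50% of each list gave 509 PC3 sites in place of 970, of which 361 overlapped a site of another line, 229 one of T47D, 212 one of A549, 306 one of HCT-116 and 135 one of every line. Leaving out a PC3 replicate gave 1041 to 2890 sites, with 693 to 1347 meeting a site of another line, 442 to 791 one of T47D, 410 to 613 one of A549 and 556 to 966 one of HCT-116, the higher value being that without replicate 1 throughout, since every peak of replicate 2 then counts. The promoter share was 37.6% to 41.4% with a replicate left out, 37.3% within 500 bp and 34.2% with 1 transcription start per gene, against 42.2%. The count of 107 HIF genes with a site stayed between 50 and 70. No comparison of libraries passed the threshold under an alternative that could have passed it (exact permutation tests, lowest p = 0.36). With a replicate left out (7 ways, smallest p = 0.14 in exact permutation tests) or blocked, none could. The difference in RCGTG share, 0.616 percentage points, ran from -4.69 without replicate 1 to 5.92 without replicate 2 and was -0.226 with the central 400 bp, and that in peak width, -16.9 bp, ran from -100 to 66.6 bp. With the replicate number as a replicate block, the differences were -16.6 points for promoters, 5.29 for RCGTG, 11.9 for TGANTCA, -4.20 for GC content and -94.2 bp for width (exact permutation tests over 8 ways, p = 0.50, 0.75, 0.38, 0.38 and 0.75, smallest possible 0.125). The A549 and HCT-116 libraries are numbered 2 and 3, so PC3 replicate 1 was set against T47D alone in these blocks. The blocked differences are therefore not the same contrast as the main ones. No source ties the numbers to a shared batch, and PC3 and T47D replicates of the same number lay on the same side in 2 of 5 measures, so libraries were not treated as paired. Of all 181 alternative values, 3 reversed and 31 counts or shares moved. The remaining 147 kept their direction and side of the threshold or, for counts and shares, stayed near the main value, but differences between libraries among them changed in size. Because depth is unknown, a gene without a PC3 site may lack binding or lack reads.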
